A study of Mus musculus with 9 samples.

Results

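The genes described here are 37 genes of homologous recombination and of the Fanconi anemia pathway, out of 55704 genes in the deposited table. The rule for membership was a list of gene names and used no measured value, but the list was drawn up with earlier results of these data known. All 37 were found by their Ensembl identifiers and passed the filter on low values. They belong to 9 role groups: the break sensor with its kinase, end resection, the BRCA complexes, the BCDX2 and CX3 complexes, RAD54 and RAD52, the Fanconi core complex, the ID2 complex with BRIP1, the nucleases that cut DNA junctions, and the checkpoint. RNA was measured in cultured neural stem cells (NSCs) that had been isolated from the subventricular zone, the germinal layer along the lateral ventricles, of C57BL/6 mice aged 8 to 9 weeks, with 2 female and 2 male mice pooled for each isolation, and passaged in culture. The bFGF/EGF group (3 libraries, day 0) grew with 20 ng/ml of each of these mitogens, the bFGF/BMP4 group (3 libraries, day 6) had EGF replaced by 20 ng/ml BMP4, and the BMP4 group (3 libraries, day 6) received 20 ng/ml BMP4 with neither mitogen. The labels call the libraries of a group biological replicates but do not say whether each came from its own isolation, so the p-values measure the spread between these libraries. Both treated groups were compared with the same bFGF/EGF libraries, which were collected 6 days earlier, so treatment and time in culture cannot be told apart in a comparison with them. The study's methods name a supplement without vitamin A only for the bFGF/EGF medium. They describe plating on poly-L-ornithine and laminin only for the BMP4 media. These differences cannot be told apart from the treatment either. The study asked what kind of cell each treatment makes: bFGF/BMP4 is an established culture model of NSC quiescence, while the identity of NSCs given BMP4 alone has been disputed.

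Homologous recombination repairs a broken chromosome by copying the intact sister chromatid, which exists only after replication, and the Fanconi anemia pathway hands crosslinked and stalled forks over to the same machinery. The MRN complex senses a break, nucleases trim its ends to single strands, the BRCA proteins and the BCDX2 and CX3 complexes prepare those strands for pairing with the sister chromatid, RAD54 drives strand exchange, and nucleases or helicases take the joined molecules apart. A checkpoint run by the kinases ATR and CHK1 holds the cell cycle until the fork or the break is dealt with. Neural progenitors depend on these genes: mice that lack Brca1, Brca2, Atr or Nbn in the developing nervous system have small brains. Cells at rest outside the cell cycle do not replicate and join broken ends mostly without a template, by non-homologous end joining.

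Levels are given as FPKM, fragments scaled to gene length and to the size of the library, which the authors deposited. Library values always run from replicate 1 to replicate 3. Differences are given as log2 fold changes on the scale of log2(FPKM + 0.1), which understates the change of genes with low levels, with the standard error (SE) of the limma fit. A gene was called when its p-value, adjusted by the Benjamini-Hochberg method over 20207 genes with a mean of at least 0.1 FPKM, was at most 0.05 and its fold change at least 2. In this text, rose and fell are used only for such calls. The libraries held 15892854 to 17419822 fragments on genes, and single members had 2 to 4178 fragments in a library. All fragment numbers were rebuilt from the FPKM values as the smallest that fitted each gene, so they can be too low. Log2 values of libraries correlated at 0.95 to 0.964 within groups and at 0.81 to 0.915 between them. By exon length, 2 libraries differed from the others of their group: the rank correlation, across genes with a mean of at least 1 FPKM, of exon length with the deviation from the mean of all libraries was -0.149 in bFGF/EGF replicate 2 (-0.035 and -0.019 in the others) and -0.143 in BMP4 replicate 2 (0.087 and 0.068), and the latter library also had the highest FPKM sum, 326302 against 278175 and 278433. The members that fell with bFGF/BMP4 and with BMP4 against bFGF/EGF numbered 19 and 22 without bFGF/EGF replicate 2, and with BMP4 against bFGF/EGF and against bFGF/BMP4 21 and 11 without BMP4 replicate 2. After an adjustment for exon length, chosen after seeing the data, the 3 counts were 19, 22 and 13, where those of the unadjusted fit were 19, 21 and 13. As a check of the treatment labels, all 9 BMP target genes rose in both treated groups against bFGF/EGF, and 10 of 13 FGF/ERK target genes fell and 1 (Ier3, named after its value was seen) rose in BMP4-treated against bFGF/BMP4-treated NSCs.

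The libraries also differed in markers of cell state. The stem cell gene Sox2 stayed between 121 and 202 FPKM in all 9 libraries, but other NSC markers did not. Of 7 NSC markers, 4 fell and 1 rose with bFGF/BMP4, and 2 fell and none rose with BMP4, both against bFGF/EGF. Between the BMP4 groups 1 fell and 2 rose. The summed level of the 7 was 1743 to 1859 FPKM in bFGF/EGF-treated, 746 to 847 in bFGF/BMP4-treated and 1467 to 1913 in BMP4-treated NSCs. The 6 astrocyte markers rose in both treated groups, from a sum of 59.2 to 81.4 FPKM with bFGF/EGF to 649 to 743 with bFGF/BMP4 and 3640 to 4515 with BMP4. Between the BMP4 groups 4 of them rose, 1 fell and 1 was not called, with log2 fold changes from -1.43 to 7.03. The sum of 7 ependymal markers was 8.2 to 12.5 FPKM with bFGF/EGF, 10.5 to 11.4 with bFGF/BMP4 and 58 to 70.1 with BMP4, most of it from Foxj1, while Tmem212 was listed at 0 in all libraries. The 7 oligodendrocyte lineage markers summed to 461 to 671, 206 to 333 and 51 to 74.9 FPKM, and the 8 neuroblast and neuron markers to 74.5 to 89.9, 55.8 to 62 and 158 to 232 FPKM in the same order. The 7 microglial markers summed to at most 1.75 FPKM and the 6 endothelial and mural markers to at most 5.53 FPKM, with the microglial gene C1qa and the endothelial gene Cldn5 listed at 0 throughout. These values moved with the groups compared below, and their part in the results was not tested.

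The summed level of the 37 genes was highest with bFGF/EGF, although 5 members (Rad51d, Xrcc2, Rad52, Fancc and Atr) had their highest mean with bFGF/BMP4. It was 209, 149 and 154 FPKM in the bFGF/EGF libraries, 79.9, 97.3 and 99 FPKM in the bFGF/BMP4 libraries, and 68.3, 61.9 and 69.8 FPKM in the BMP4 libraries. All treated libraries lay under all bFGF/EGF libraries, and all BMP4 libraries lay under all bFGF/BMP4 libraries. In bulk libraries, fewer cycling cells and less repair RNA in each cell cannot be told apart. The median member had 3.71 FPKM with bFGF/EGF, 1.72 with bFGF/BMP4 and 0.933 with BMP4. The gene with the highest level was Topbp1 with bFGF/EGF (16.7 FPKM on average) but Nbn in both treated groups (8.37 and 8.79 FPKM). The lowest was Rad51b with bFGF/EGF (0.623 FPKM), Palb2 with bFGF/BMP4 (0.373 FPKM) and Eme1 with BMP4 (0.162 FPKM).

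**Figure D1:**
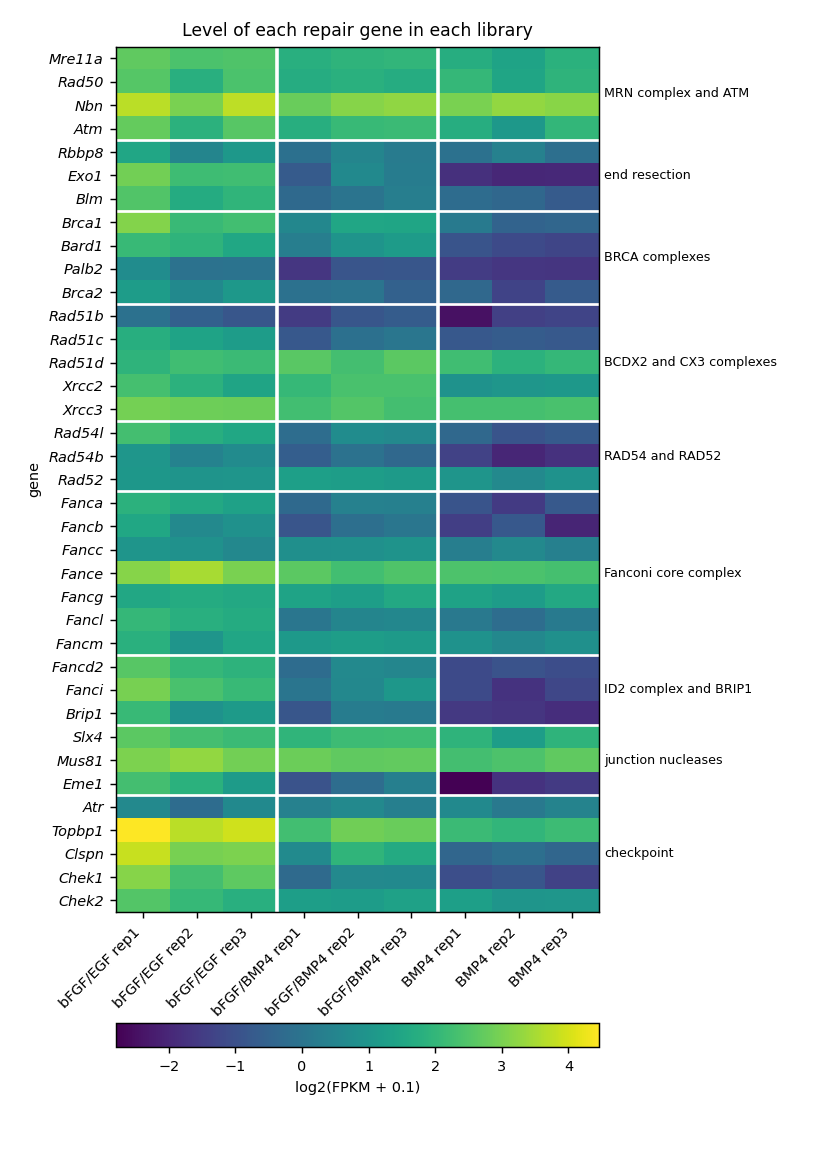
Level of each of the 37 genes (rows, grouped by role) in each of the 9 libraries (columns), as log2(FPKM + 0.1) on a color scale from purple (low) to yellow (high). Exo1, Eme1, Fanci and Brip1 darken from left to right, while Nbn, Rad51d, Rad52 and Fancg keep similar shades across the groups.

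In bFGF/BMP4-treated against bFGF/EGF-treated NSCs, 19 of the 37 genes fell, none rose and 18 were not called. Among all genes tested, 14.1% fell and 16.5% rose. The median log2 fold change of the 37 genes was -1.02, against 0.06 for all genes tested. By the adjusted p-value alone, 24 members were lower and none higher, against 23.6% of all genes lower and 25.0% higher. In 25 members all bFGF/BMP4 libraries lay under all bFGF/EGF libraries, an arrangement found in 27.5% of all genes. In 2 members, Rad51d and Rad52, they lay above them, as in 30.2% of all genes. With a pseudocount of 1, 12 members fell. None rose in limma or limma-voom, and 1 member, Rad51d, was higher at an unadjusted p-value under 0.05.

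In BMP4-treated against bFGF/EGF-treated NSCs, 21 of the 37 genes fell, none rose and 16 were not called, while 15.4% of all genes tested fell and 21.3% rose. The median log2 fold change was -1.77, against 0.10 for all genes tested. By the adjusted p-value alone, 30 members were lower and none higher, against 25.3% of all genes lower and 29.6% higher. The BMP4 libraries lay under all bFGF/EGF libraries in 29 members, against 27.8% of all genes, and above them in none, against 32.6%. This comparison shares its control libraries with the one before, so the 2 counts are not independent. None of the 37 rose in limma-voom either, and none was higher at an unadjusted p-value under 0.05.

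In BMP4-treated against bFGF/BMP4-treated NSCs, 13 of the 37 genes fell, none rose and 24 were not called, while 5.14% of all genes tested fell and 8.41% rose. The median log2 fold change was -0.47, against 0.00 for all genes tested. By the adjusted p-value alone the counts were again 13 lower and none higher, against 8.89% and 12.2% of all genes. In 20 members the BMP4 libraries lay under all bFGF/BMP4 libraries, as in 18.3% of all genes. Of the 3 counts of members, this one moved most when single libraries were left out. It was 8 without bFGF/BMP4 replicate 2, 8 without bFGF/BMP4 replicate 3 and 10 to 13 without any other library, and Brca1, Brip1, Eme1, Fanca and Rad54l lost their call in both of the first cases. With a pseudocount of 1 it was 1 (Clspn), since most of these genes lay under 1 FPKM in BMP4-treated NSCs, where that pseudocount shrinks a ratio. None of the 37 rose in limma-voom or was higher at an unadjusted p-value under 0.05.

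Across the 3 comparisons the members fell into a few patterns. In all 3, 12 genes fell (Exo1, Brca1, Bard1, Rad54l, Rad54b, Fanca, Fancd2, Fanci, Brip1, Eme1, Clspn and Chek1), against 1.38% of all genes. In both comparisons with bFGF/EGF but not between the BMP4 groups, 7 fell (Blm, Palb2, Brca2, Rad51c, Fancb, Fancl and Topbp1). Rad51b and Chek2 fell only with BMP4 alone against bFGF/EGF, and Xrcc2 fell only with BMP4 alone against bFGF/BMP4. The other 15 genes were not called in any comparison.

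**Figure D2:**
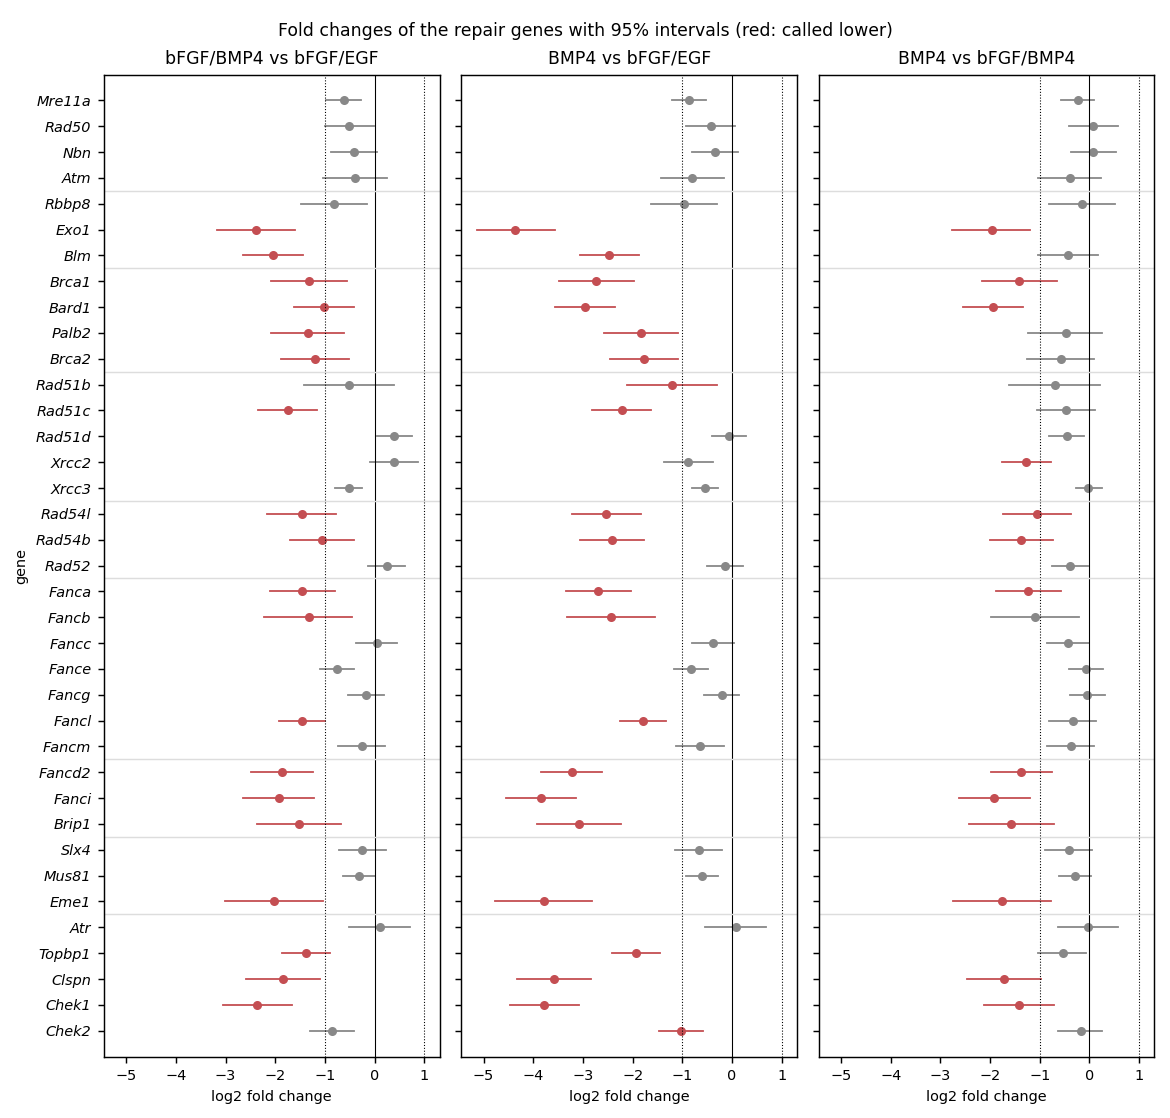
Log2 fold change of each of the 37 genes (points) with its 95% interval from the limma fit (bars) in the 3 comparisons, with red for genes that fell and gray for genes that were not called. Dotted lines mark a fold change of 2. Red points number 19, 21 and 13 from left to right, and no gene lies beyond the dotted line on the right.

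The sensor of broken ends was not called in any comparison. Mre11a encodes the nuclease of the MRN complex, Rad50 its ATPase, Nbn the subunit that recruits the kinase ATM, and Atm that kinase. Nbn, the gene with the highest mean over all libraries, had 13.0, 7.96 and 13.2 FPKM in the bFGF/EGF libraries, 6.88, 8.72 and 9.50 in the bFGF/BMP4 libraries and 7.90, 9.60 and 8.86 in the BMP4 libraries. Its groups overlapped in all comparisons, and the log2 fold change was -0.42 with bFGF/BMP4 (95% interval -0.87 to 0.04) and -0.34 with BMP4 (-0.80 to 0.12) against bFGF/EGF. For Mre11a the values were 6.33, 5.24 and 5.41 FPKM in the bFGF/EGF libraries, 3.37, 3.67 and 3.87 in the bFGF/BMP4 libraries and 3.22, 2.56 and 3.47 in the BMP4 libraries. Both treated groups lay under bFGF/EGF without overlap, at -0.62 and -0.86 on the log2 scale (adjusted p = 0.0074 and 0.00091 in limma), short of a fold change of 2. Rad50 measured 5.75, 3.37 and 5.20 FPKM in the bFGF/EGF libraries, 3.16, 3.41 and 3.14 in the bFGF/BMP4 libraries and 3.99, 2.68 and 3.73 in the BMP4 libraries. Its treated and control libraries overlapped, at -0.51 and -0.43. Atm was found at 6.66, 3.55 and 5.91 FPKM in the bFGF/EGF libraries, 3.30, 4.16 and 4.36 in the bFGF/BMP4 libraries and 3.19, 2.01 and 3.96 in the BMP4 libraries. The bFGF/EGF libraries spanned a wider range than either treated group and overlapped with both, and the log2 fold change was -0.40 (-1.04 to 0.24) with bFGF/BMP4 and -0.80 (-1.43 to -0.16, adjusted p = 0.037 in limma) with BMP4. Without bFGF/EGF replicate 2 or without BMP4 replicate 3, the BMP4 value passed the fold threshold, at -1.07 and -1.01. Between the BMP4 groups the 4 genes lay between -0.40 and 0.08.

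End resection was split. Exo1 (chr1:175708143-175741055 in GRCm39), a nuclease that digests one strand over long distances from the break, showed the largest fall of all 37 genes. Its levels were 7.42, 4.56 and 4.58 FPKM in the bFGF/EGF libraries, 0.51, 1.49 and 1.09 in the bFGF/BMP4 libraries and 0.19, 0.154 and 0.158 in the BMP4 libraries. The groups did not overlap, in the order bFGF/EGF, bFGF/BMP4, BMP4. The log2 fold change was -2.38 ± 0.35 (SE, adjusted p = 0.00033 in limma) with bFGF/BMP4 and -4.36 ± 0.35 (adjusted p = 4.5e-06) with BMP4 against bFGF/EGF, and -1.97 ± 0.35 (adjusted p = 0.0027) between the BMP4 groups. The mean with BMP4 was 3.03% of that with bFGF/EGF, from 21 to 26 fragments a library. Blm, the helicase that unwinds ends for resection and later dissolves crossed DNA molecules, fell by 2.04 and 2.47 on the log2 scale in the treated groups, and its values between the BMP4 groups overlapped (-0.43). Rbbp8 encodes CtIP, which starts resection together with MRN. Rbbp8 had 2.74, 1.33 and 2.00 FPKM in the bFGF/EGF libraries, 0.83, 1.32 and 1.08 in the bFGF/BMP4 libraries and 0.841, 1.22 and 0.809 in the BMP4 libraries. Both treated groups lay under bFGF/EGF and overlapped with each other. With BMP4 the log2 fold change of -0.97 (adjusted p = 0.018 in limma) stopped just short of the threshold, which it passed in limma-voom (-1.14), on the TPM scale (-1.05), with median-ratio scaling (-1.01), after adjustment for exon length (-1.07), and without bFGF/EGF replicate 2 (-1.23) or BMP4 replicate 2 (-1.14).

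All 4 BRCA complex genes fell in both comparisons with bFGF/EGF. Brca1 and Bard1 encode the partners of a ubiquitin ligase that promotes resection, BRCA1 recruits PALB2, and PALB2 bridges it to BRCA2, which prepares the single strands for exchange. Bard1 was present at 4.16, 3.68 and 2.77 FPKM in the bFGF/EGF libraries, 1.13, 1.87 and 2.19 in the bFGF/BMP4 libraries and 0.435, 0.349 and 0.311 in the BMP4 libraries. The 3 groups did not overlap, and the step from bFGF/BMP4 to BMP4 (-1.94 ± 0.27, adjusted p = 0.00065 in limma) was larger than the step from bFGF/EGF to bFGF/BMP4 (-1.02 ± 0.27, adjusted p = 0.011), a difference that was not tested. Without bFGF/EGF replicate 1, bFGF/EGF replicate 2 or bFGF/BMP4 replicate 1, the first step was -0.90, -0.98 and -0.76 and below the fold threshold. Brca1 measured 8.53, 4.25 and 4.71 FPKM in the bFGF/EGF libraries, 1.37, 2.74 and 2.68 in the bFGF/BMP4 libraries and 1.02, 0.622 and 0.661 in the BMP4 libraries. The groups again did not overlap, with -1.32 ± 0.34 (adjusted p = 0.0089 in limma) in bFGF/BMP4-treated and -2.73 ± 0.34 (adjusted p = 8.1e-05) in BMP4-treated NSCs. The fall between the BMP4 groups was -1.41 ± 0.34 (adjusted p = 0.014 in limma), and the adjusted p was 0.059 to 0.067 without bFGF/BMP4 replicate 2 or 3 or BMP4 replicate 2 or 3. Brca2 levels were 2.22, 1.47 and 2.00 FPKM in the bFGF/EGF libraries, 0.835, 0.893 and 0.583 in the bFGF/BMP4 libraries and 0.686, 0.299 and 0.511 in the BMP4 libraries. Both treated groups lay under bFGF/EGF (-1.20 and -1.77) and overlapped with each other (-0.58). Palb2 fell by 1.35 and 1.83 against bFGF/EGF and had the lowest mean of the bFGF/BMP4 group. Exons of Brca2 share 2017 bases with N4bp2l1 on the opposite strand, and as the strandedness of the counting is not given in the sources used here, reads there could have been counted for either gene.

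Promoters of the members were searched for letters bound by cell cycle regulators. RefSeq (GRCm38.p6) gave a window from 250 bases before to 50 after the start for 29 of the 37 genes, and both strands were read. E2F-type letters (TTTCCCGC, TTTGGCGC, TTTCGCGC or TTTGCCGC) occurred in 7 of the 29 (24.1%), namely Bard1, Brca2, Chek2, Clspn, Fancg, Rad51c and Topbp1, against 2.6% of 27025 genes. The letters of the cell cycle homology region (TTTGAA or TTCGAA) occurred in 4 of the 29 (13.8%) against 21.7% of all genes, and CCAAT in 17 (58.6%) against 41.1%. None of these letters lies within another. Of the members with a window, 2 of 9 that fell in all 3 comparisons, 4 of 9 that fell in 1 or 2 and 1 of 11 that were never called held E2F-type letters. Shown are 60 bases each from Bard1 (chr1:71103148-71103207, minus strand), which fell in all 3 comparisons, Brca2 (chr5:150522427-150522486, plus strand), which fell in 2, and Fancg (chr4:43010320-43010379, minus strand), which was never called, with the E2F-type letters in capitals.
Bard1: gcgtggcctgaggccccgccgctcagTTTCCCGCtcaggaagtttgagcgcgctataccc
Brca2: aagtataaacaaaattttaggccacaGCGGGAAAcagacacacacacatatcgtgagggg
Fancg: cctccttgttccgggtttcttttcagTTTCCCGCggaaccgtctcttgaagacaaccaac
The first capital lies 209, 168 and 52 bases before the start, and the same 8 letters stand in Bard1 and Fancg on the strand of the gene and in Brca2 as their reverse complement. A match is a description of these letters and not of a bound site, and the coordinates are those of the RefSeq table, not of the build used by the authors.

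The genes of the BCDX2 and CX3 complexes did not move as a group. Both complexes assist strand exchange, with RAD51B, RAD51C, RAD51D and XRCC2 in BCDX2 and RAD51C and XRCC3 in CX3. Rad51c, shared by both complexes, had 3.29, 2.57 and 2.25 FPKM in the bFGF/EGF libraries, 0.483, 0.818 and 0.946 in the bFGF/BMP4 libraries and 0.478, 0.521 and 0.484 in the BMP4 libraries. Its treated libraries all lay under the control libraries, at -1.75 ± 0.26 (adjusted p = 0.00039 in limma) and -2.22 ± 0.26 (adjusted p = 6.1e-05), and the BMP4 groups overlapped. For Rad51d the libraries measured 3.71, 4.63 and 4.36 FPKM in the bFGF/EGF libraries, 5.98, 4.84 and 6.08 in the bFGF/BMP4 libraries and 4.63, 3.54 and 4.03 in the BMP4 libraries. All bFGF/BMP4 libraries lay above all bFGF/EGF and all BMP4 libraries, but neither difference passed the test (0.40, adjusted p = 0.057, and -0.46, adjusted p = 0.066 in limma), and BMP4 against bFGF/EGF was at -0.06 (-0.41 to 0.29). Xrcc2 (chr5:25802020-25910827 in GRCm39) was measured at 4.95, 3.58 and 2.62 FPKM in the bFGF/EGF libraries, 4.08, 5.15 and 5.07 in the bFGF/BMP4 libraries and 1.77, 1.94 and 2.02 in the BMP4 libraries. Its bFGF/BMP4 libraries overlapped with bFGF/EGF (0.39, -0.10 to 0.88) and the BMP4 libraries lay under both, so that it fell between the BMP4 groups (-1.27 ± 0.22, adjusted p = 0.0023 in limma), a call it kept whichever single library was left out. Against bFGF/EGF the BMP4 value was -0.88 (adjusted p = 0.0066 in limma), and it passed the fold threshold in limma-voom (-1.01) and without bFGF/EGF replicate 3 (-1.10). Xrcc3 levels were 7.61, 7.15 and 7.06 FPKM in the bFGF/EGF libraries, 4.68, 5.64 and 4.80 in the bFGF/BMP4 libraries and 4.90, 4.87 and 5.12 in the BMP4 libraries. Both treated groups lay under bFGF/EGF with little spread, at -0.52 and -0.54, short of a fold of 2, and the BMP4 groups were at -0.02 (-0.28 to 0.25). Exons of Xrcc3 share 1898 bases with those of Klc1 on the other strand, which had 35.1 to 38.8 FPKM. Rad51b, the member with the lowest mean over all libraries, had 0.845, 0.572 and 0.452 FPKM in the bFGF/EGF libraries, 0.249, 0.451 and 0.525 in the bFGF/BMP4 libraries and 0.082, 0.279 and 0.307 in the BMP4 libraries. It rested on 5 to 54 fragments a library. Its fall with BMP4 against bFGF/EGF (-1.21 ± 0.41, adjusted p = 0.028 in limma) was not called with no filter on low values (adjusted p = 0.055), with a pseudocount of 1, or without bFGF/EGF replicate 1, bFGF/EGF replicate 2 or BMP4 replicate 1 (adjusted p of 0.10, 0.06 and 0.094).

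**Figure D3:**
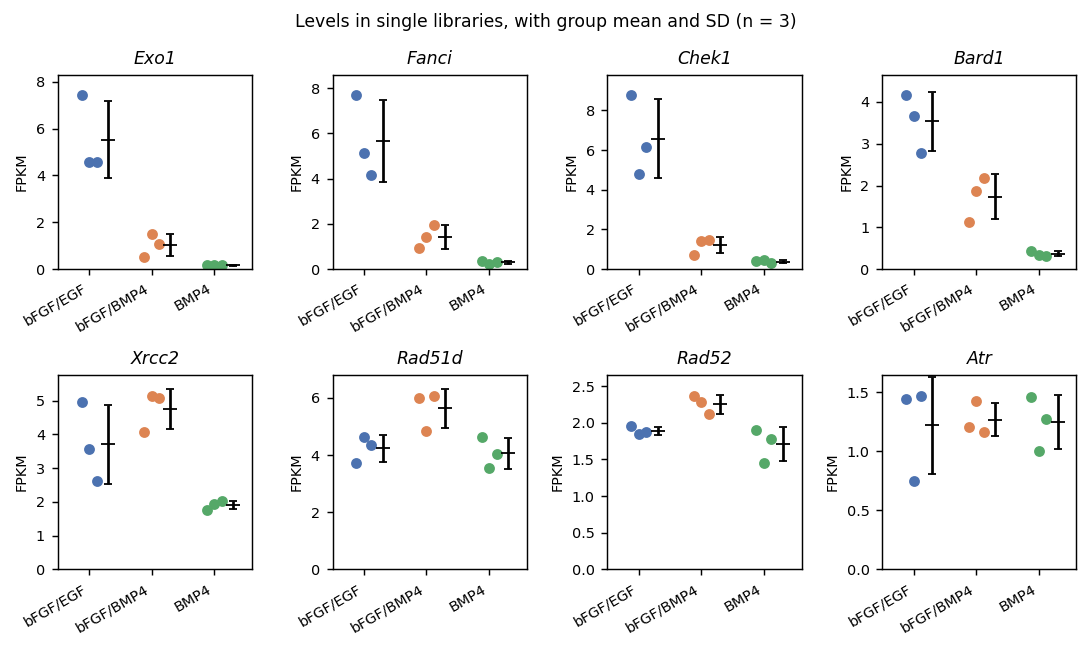
FPKM of 8 of the genes in each library (colored points), with the mean and SD of each group of 3 libraries (black bars). Exo1, Fanci, Chek1 and Bard1 descend over the 3 groups, Xrcc2 is low only with BMP4, Rad51d and Rad52 lie highest with bFGF/BMP4 without passing the test, and the groups of Atr overlap.

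The RAD54 motors fell and RAD52 did not. Rad54l and Rad54b encode motor proteins that act during strand exchange, and Rad52 encodes a protein that anneals single strands. Rad54l measured 4.82, 3.28 and 2.81 FPKM in the bFGF/EGF libraries, 0.775, 1.58 and 1.44 in the bFGF/BMP4 libraries and 0.695, 0.433 and 0.496 in the BMP4 libraries. The groups did not overlap, and the fall was -1.47 ± 0.31 (adjusted p = 0.0029 in limma) with bFGF/BMP4 and -2.53 ± 0.31 (adjusted p = 7.3e-05) with BMP4. Between the BMP4 groups it was -1.06 (adjusted p = 0.036 in limma), which was the call lost most often when single libraries were left out, with adjusted p of 0.056 to 0.14 without bFGF/EGF replicate 2, bFGF/BMP4 replicate 2 or 3 or BMP4 replicate 2 or 3. Exons of Rad54l share 2354 bases with those of Lrrc41 on the opposite strand. Rad54b had 1.94, 1.25 and 1.53 FPKM in the bFGF/EGF libraries, 0.549, 0.868 and 0.694 in the bFGF/BMP4 libraries and 0.288, 0.149 and 0.199 in the BMP4 libraries. It fell in the 3 comparisons by 1.06, 2.42 and 1.37 on the log2 scale with no overlap of the groups. The first of these falls stopped short of a fold of 2 without bFGF/EGF replicate 1 (-0.90, adjusted p = 0.052 in limma) or without bFGF/BMP4 replicate 1 (-0.91). Rad54b shares 4358 exon bases with Fsbp on the same strand, so its value is uncertain where fragments could be assigned to either gene. Rad52 stood at 1.95, 1.85 and 1.88 FPKM in the bFGF/EGF libraries, 2.37, 2.28 and 2.12 in the bFGF/BMP4 libraries and 1.90, 1.45 and 1.78 in the BMP4 libraries. The bFGF/BMP4 libraries lay above both other groups, which overlapped, and the log2 fold changes of 0.24, -0.15 and -0.39 did not pass the test (adjusted p = 0.26, 0.47 and 0.13 in limma).

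In the Fanconi core complex, which attaches ubiquitin to the ID2 complex at a crosslink, 3 of 7 genes fell in both comparisons with bFGF/EGF. Fancl, the ubiquitin ligase subunit, fell by 1.46 and 1.79 on the log2 scale and Fancb, its partner in the same subcomplex, by 1.33 and 2.43, and neither was called between the BMP4 groups. For Fancb the first of these falls had an adjusted p of 0.079 without bFGF/EGF replicate 1 and of 0.074 without bFGF/BMP4 replicate 1. Fanca, which forms a module with Fancg, was measured at 3.58, 2.92 and 2.47 FPKM in the bFGF/EGF libraries, 0.71, 1.21 and 1.20 in the bFGF/BMP4 libraries and 0.436, 0.24 and 0.484 in the BMP4 libraries. Fanca fell in each comparison with no overlap, by 1.46, 2.69 and 1.23 on the log2 scale (adjusted p = 0.0023, 3.4e-05 and 0.013 in limma), the last of them not called without bFGF/BMP4 replicate 2 or 3 or BMP4 replicate 2. It shares 3213 exon bases with Zfp276 on the opposite strand, and Fancl shares 1511 with Vrk2, which had 0.24 to 0.358 FPKM. Its partner Fancg had 2.85, 3.07 and 2.89 FPKM in the bFGF/EGF libraries, 2.59, 2.30 and 2.92 in the bFGF/BMP4 libraries and 2.50, 2.23 and 2.89 in the BMP4 libraries. The groups overlapped in all comparisons, at -0.17 (-0.53 to 0.18), -0.21 (-0.56 to 0.15) and -0.04 (-0.39 to 0.32), so that a fall of 2-fold lies outside each interval. Fance, which links the core to FANCD2, measured 8.73, 11.2 and 7.98 FPKM in the bFGF/EGF libraries, 6.12, 4.74 and 5.41 in the bFGF/BMP4 libraries and 5.29, 5.20 and 4.94 in the BMP4 libraries. Both treated groups lay under bFGF/EGF at -0.76 and -0.83, with adjusted p of 0.0023 and 0.0012 in limma but a fold under 2. Fancc, the partner of FANCE, was found at 1.90, 1.73 and 1.41 FPKM in the bFGF/EGF libraries, 1.66, 1.70 and 1.80 in the bFGF/BMP4 libraries and 1.14, 1.46 and 1.19 in the BMP4 libraries. Its bFGF/BMP4 and bFGF/EGF libraries overlapped (0.04), and its BMP4 libraries lay under those with bFGF/BMP4 without passing the test (-0.43, adjusted p = 0.14 in limma). Fancm, the DNA translocase that recruits the core, had 3.38, 1.91 and 2.73 FPKM in the bFGF/EGF libraries, 2.08, 2.26 and 2.12 in the bFGF/BMP4 libraries and 1.78, 1.41 and 1.71 in the BMP4 libraries. Its values changed by -0.26 and -0.65 on the log2 scale against bFGF/EGF, the second with an adjusted p of 0.027 in limma.

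The ID2 complex and BRIP1 were the role group in which every gene fell in every comparison. FANCD2 and FANCI form the clamp that receives ubiquitin and locks onto DNA at the crosslink, and BRIP1 is a helicase that binds BRCA1. Fanci (chr7:79041677-79100027 in GRCm39) had 7.68, 5.14 and 4.17 FPKM in the bFGF/EGF libraries, 0.916, 1.40 and 1.95 in the bFGF/BMP4 libraries and 0.352, 0.203 and 0.326 in the BMP4 libraries. The 3 groups did not overlap, and the fall was -1.93 ± 0.32 (adjusted p = 0.00067 in limma) with bFGF/BMP4, -3.85 ± 0.32 (adjusted p = 5.3e-06) with BMP4 and -1.92 ± 0.32 (adjusted p = 0.0018) between them. The BMP4 mean was 5.18% of the bFGF/EGF mean. Fancd2 measured 5.86, 4.02 and 3.63 FPKM in the bFGF/EGF libraries, 0.753, 1.45 and 1.36 in the bFGF/BMP4 libraries and 0.349, 0.42 and 0.374 in the BMP4 libraries. It fell by 1.86, 3.23 and 1.37 on the log2 scale (adjusted p = 0.00036, 6.7e-06 and 0.0056 in limma) with no overlap between groups. Brip1 levels were 4.13, 1.78 and 2.14 FPKM in the bFGF/EGF libraries, 0.459, 1.09 and 1.04 in the bFGF/BMP4 libraries and 0.231, 0.215 and 0.179 in the BMP4 libraries. These groups too did not overlap, and the falls were 1.52, 3.09 and 1.57 on the log2 scale, of which the last was not called without bFGF/BMP4 replicate 2 or 3 or BMP4 replicate 3 (adjusted p of 0.067, 0.065 and 0.056 in limma). Exons of Fanci share 1064 bases with Polg on the opposite strand, which went from 20.4 FPKM with bFGF/EGF to 6.54 with BMP4, and how far that moved the value of Fanci was not tested.

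Among the nucleases that cut joined DNA, Eme1 fell and its partner did not. Mus81 encodes the catalytic subunit and Eme1 its partner, which it needs to cut, and Slx4 encodes the scaffold that holds several nucleases. Eme1 (chr11:94535822-94544812 in GRCm39) had 4.77, 3.46 and 2.19 FPKM in the bFGF/EGF libraries, 0.428, 0.779 and 1.16 in the bFGF/BMP4 libraries and 0.045, 0.201 and 0.241 in the BMP4 libraries. The groups did not overlap, with -2.03 ± 0.44 (adjusted p = 0.0036 in limma), -3.79 ± 0.44 (adjusted p = 5.2e-05) and -1.76 ± 0.44 (adjusted p = 0.017). Only 2 to 11 fragments stood behind each BMP4 value, and the last fall was not called without bFGF/BMP4 replicate 2 or 3 or BMP4 replicate 1 (adjusted p of 0.062, 0.077 and 0.069 in limma) nor when only these groups were fitted (0.051). Its exons share 1243 bases with those of Lrrc59 on the opposite strand, which had 122 FPKM with bFGF/EGF and 38.6 and 36.3 in the treated groups, and the part of its reads in the values of Eme1 was not tested. Mus81 measured 8.01, 9.61 and 7.42 FPKM in the bFGF/EGF libraries, 7.05, 6.41 and 6.52 in the bFGF/BMP4 libraries and 4.80, 5.26 and 6.32 in the BMP4 libraries. The BMP4 libraries lay under both other groups and the log2 fold changes of -0.31, -0.60 and -0.29 stayed under a fold of 2. Slx4 stood at 6.16, 4.79 and 4.36 FPKM in the bFGF/EGF libraries, 3.77, 4.47 and 4.50 in the bFGF/BMP4 libraries and 3.67, 2.27 and 3.70 in the BMP4 libraries. Its BMP4 libraries lay under those of both other groups, at -0.67 (-1.15 to -0.20, adjusted p = 0.022 in limma) against bFGF/EGF.

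Of the 5 checkpoint genes, 4 fell with BMP4 against bFGF/EGF and Atr did not. Atr, the kinase that answers to single-stranded DNA, had 1.44, 0.749 and 1.47 FPKM in the bFGF/EGF libraries, 1.21, 1.43 and 1.17 in the bFGF/BMP4 libraries and 1.47, 1.01 and 1.27 in the BMP4 libraries. All groups overlapped, and the log2 fold change was 0.10 (-0.51 to 0.71) with bFGF/BMP4, 0.07 (-0.54 to 0.68) with BMP4 and -0.03 (-0.64 to 0.58) between them. The signs of these values near 0 changed with the processing. Chek1 (chr9:36614487-36638361 in GRCm39), the kinase that ATR activates, measured 8.76, 4.80 and 6.18 FPKM in the bFGF/EGF libraries, 0.725, 1.43 and 1.48 in the bFGF/BMP4 libraries and 0.385, 0.453 and 0.288 in the BMP4 libraries. It fell by 2.36, 3.79 and 1.42 on the log2 scale (adjusted p = 0.00016, 5.3e-06 and 0.0089 in limma) with no overlap between groups, to 5.71% of the bFGF/EGF mean with BMP4. Clspn, which encodes the adaptor Claspin that brings CHK1 to ATR, had 14.2, 7.69 and 8.01 FPKM in the bFGF/EGF libraries, 1.52, 3.75 and 3.03 in the bFGF/BMP4 libraries and 0.668, 0.808 and 0.667 in the BMP4 libraries. It fell by 1.85, 3.58 and 1.73 on the log2 scale, again with separate groups. Topbp1, the activator of ATR and the member with the highest level with bFGF/EGF, fell by 1.39 and 1.93 against bFGF/EGF, from a mean of 16.7 ± 4.64 FPKM (SD, n = 3) to 6.27 ± 1.37 and 4.20 ± 0.342 FPKM, and its change between the BMP4 groups (-0.54, adjusted p = 0.11 in limma) was not called. Chek2, the kinase that ATM activates, fell with BMP4 (-1.03, adjusted p = 0.0015 in limma) but stopped short of the fold threshold with bFGF/BMP4 (-0.85, adjusted p = 0.0055). Without bFGF/EGF replicate 1 or BMP4 replicate 2 or 3 the BMP4 value of Chek2 was also short of it, at -0.83, -0.97 and -0.99.

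The other genes of the pathway were read from a list of 56. Of the 56 genes, 20 fell and 2 rose with bFGF/BMP4, 22 fell and 4 rose with BMP4, both against bFGF/EGF, and 8 fell and 1 rose between the BMP4 groups, with median log2 fold changes of -0.54, -0.70 and -0.13. The falls were 35.7%, 39.3% and 14.3% of the list, against 14.1%, 15.4% and 5.14% of all genes, of which 16.5%, 21.3% and 8.41% rose. The count of 8 was 3 without bFGF/BMP4 replicate 2, 4 without bFGF/BMP4 replicate 3 or BMP4 replicate 2 and 5 without BMP4 replicate 1, and the count of 2 was 1 without bFGF/EGF replicate 1. The largest falls with BMP4 were in Rmi2 (-4.43), a subunit of the BLM complex, and Timeless (-4.22), a fork protection factor. The medians of the 37 genes were -1.02, -1.77 and -0.47.

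Other repair pathways were read the same way. Among all genes tested, 14.1%, 15.4% and 5.14% fell and 16.5%, 21.3% and 8.41% rose in the 3 comparisons. In non-homologous end joining, which needs no sister chromatid, 1 of 10 genes fell and 1 rose with bFGF/BMP4, none fell and 1 rose with BMP4 (Dclre1c, the nuclease Artemis, at 1.07 on the log2 scale), and none fell and 2 rose between the BMP4 groups, with medians of 0.03, 0.36 and 0.23. In each of the last comparisons, limma-voom called none lower as well and 1 gene was lower at an unadjusted p-value under 0.05 in limma, and Dclre1c, at 0.98, was not called on the TPM scale. With BMP4 against bFGF/EGF, 3 end joining genes were higher and 1 was lower by the adjusted p-value alone. The count called higher was 0 without bFGF/EGF replicate 2, 3 without bFGF/EGF replicate 3 and 2 without BMP4 replicate 1 or 2. Between the BMP4 groups it was 1 without bFGF/BMP4 replicate 3 or BMP4 replicate 2, and the single fall with bFGF/BMP4 was lost without bFGF/EGF replicate 2 or 3 or bFGF/BMP4 replicate 3. Its summed level was 54.1 to 60.1 FPKM with bFGF/EGF, 46.7 to 53.4 with bFGF/BMP4 and 59 to 78.2 with BMP4. In mismatch repair, 2 of 6 genes fell in each comparison with bFGF/EGF, with medians of -0.48 and -0.77. In base excision repair, 8 of 22 genes tested fell with bFGF/BMP4 and 12 with BMP4, led by the uracil glycosylase Ung (-4.18) and the DNA ligase Lig1 (-3.48), and 4 fell between the BMP4 groups. In nucleotide excision repair, 2 and 3 of 19 genes (10.5% and 15.8%) fell in the comparisons with bFGF/EGF, close to the 14.1% and 15.4% of all genes. In each, 1 rose (Ddb2, a damage sensor, at 1.87 with BMP4), against 16.5% and 21.3% of all genes. By the adjusted p-value alone, 11 and 10 were lower, against 23.6% and 25.3% of all genes. In each, 2 were higher by it, against 25.0% and 29.6%. Between the BMP4 groups none were called in limma or limma-voom. There, 1 was higher and none lower by the adjusted p-value alone, and 3 were lower and 1 higher at an unadjusted p-value under 0.05 in limma.

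**Figure D4:**
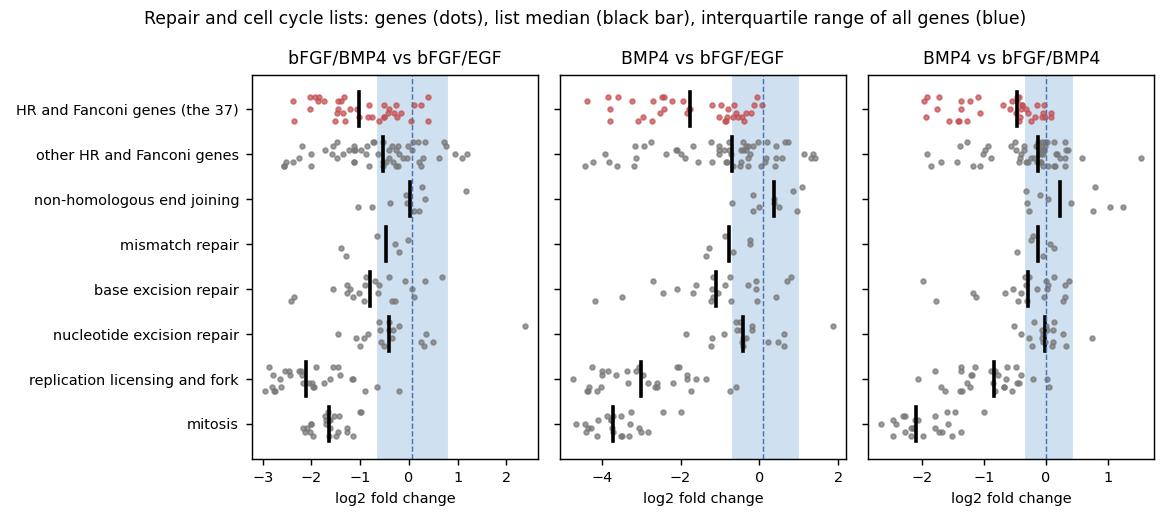
Log2 fold change of each gene (dots) in the 37 genes (red) and in 7 other lists (gray) for the 3 comparisons, with the median of each list (black bar), the interquartile range of all genes tested (blue band) and their median (dashed line). The bars of the 37 genes sit at -1.02, -1.77 and -0.47, left of those of end joining (0.03, 0.36 and 0.23) and right of those of mitosis (-1.65, -3.72 and -2.09).

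Markers of the cell cycle moved with the repair genes. Mki67, which encodes the Ki67 antigen of cycling cells, had 51.2, 19.8 and 31.2 FPKM in the bFGF/EGF libraries, 7.22, 13.6 and 10.1 in the bFGF/BMP4 libraries and 1.79, 1.55 and 1.82 in the BMP4 libraries. The groups did not overlap, in the same order as the sum of the 37 genes. Of 30 genes for replication licensing and forks, 27, 28 and 13 fell in the 3 comparisons, with medians of -2.11, -3.01 and -0.84, and Mcm5 and Mcm2, subunits of the replicative helicase, reached -4.73 and -4.36 with BMP4 against bFGF/EGF. The count of 13 was 6 without bFGF/BMP4 replicate 2 or 3 or BMP4 replicate 1 or 3, and 17 without bFGF/BMP4 replicate 1. Of 24 mitosis genes, 22, 24 and 23 fell, and Ccnb1 (-4.66) and Plk1 (-4.43) led them with BMP4. The summed level of the mitosis list was 830, 444 and 379 FPKM in the bFGF/EGF libraries, 117, 166 and 186 in the bFGF/BMP4 libraries and 34.3, 35 and 35.9 in the BMP4 libraries. The library with the highest mitosis sum, bFGF/EGF replicate 1, was also the one with the highest sum of repair genes. Replicates 2 and 3 of that group had the opposite order, with mitosis sums of 444 and 379 FPKM and repair sums of 149 and 154 FPKM. Without bFGF/EGF replicate 1, 16 members fell with bFGF/BMP4 and 19 with BMP4.

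**Figure D5:**
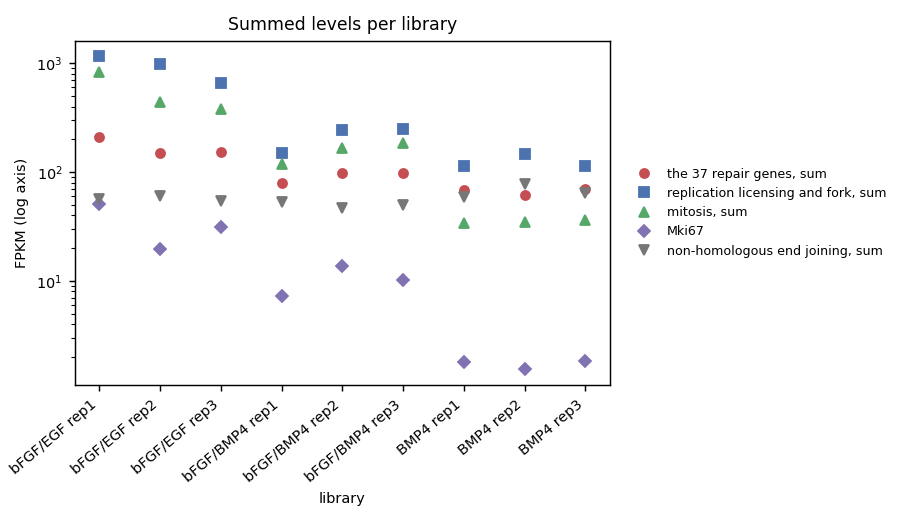
Summed FPKM of the 37 genes, of the replication, mitosis and end joining lists, and the FPKM of Mki67 (symbols), for each of the 9 libraries on a log axis. The 37 genes go from 149 to 209 FPKM with bFGF/EGF to 61.9 to 69.8 with BMP4, and the mitosis list from 379 to 830 FPKM to 34.3 to 35.9. The end joining sum lies between 46.7 and 78.2 FPKM, with all bFGF/BMP4 libraries under all others.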

How the data were processed

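Bulk RNA-seq of 9 libraries, 3 per treatment, was grouped by the treatment in the sample labels. Per the submitters' processing notes and methods, the authors cleaned paired-end reads with fastp 0.19.7, aligned them with HISAT2 2.0.5 to mm39 and counted them with featureCounts 1.5.0-p3. They deposited FPKM values for 55704 genes, with a column for each library. The program that made the FPKM values and the annotation release are not given in the sources used here. Of 55414 Ensembl identifiers, 54749 were found in GENCODE vM39, which gave gene positions in GRCm39. FPKM scales by gene length and library total, so a shift of a few abundant genes moves all others.

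Differential expression was tested with limma 3.58.1 in R 4.3.3 (lmFit, eBayes with trend) on FPKM values that were logged (base 2) after adding 0.1. The 20207 genes averaging 0.1 FPKM or more entered one fit of all 9 libraries, in place of the DESeq2 test of the authors, because the deposited table holds FPKM. The count table in the supplement of the study was not used here. Fragment numbers were rebuilt from the steps of the FPKM values for all 30860 genes above 0, as the smallest whole numbers that fitted each gene. The numbers of a gene can therefore be too low by a factor common to its libraries. They served limma-voom as an alternative and the totals of 15892854 to 17419822 fragments per library. At this depth a member had 2 to 4178 fragments in a library. Tables and figures used Python 3.11.15, pandas 2.3.3, numpy 2.4.6 and matplotlib 3.10.9. The fit was also run on simulated data with normal noise and few changed genes, all in the BMP4 group. That setting differs from these data, in which many genes were called, so it says little about the calls made here.

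The 37 genes, the other gene lists and the rule for named genes were chosen with earlier results of these data known. By that rule, values in every library are given for members called between the BMP4 groups or in neither comparison with bFGF/EGF, for the members of each role with the largest and smallest change with BMP4, and for those with the highest and lowest mean, while other lists contribute their 2 largest changes, with Mki67. Sox2, Foxj1 and the genes at 0 among the cell type markers are named as checks. The fit was repeated with 1 added before the log, without the filter or with one at 1 FPKM, on the TPM scale, with median-ratio scaling, with limma-voom, with a replicate block, with the compared groups alone, under other calling thresholds, with single libraries removed and, as a step chosen after seeing the data, with an adjustment of each library for exon length. Promoter windows came from RefSeq (GRCm38.p6). Results for some genes are not reported here.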

Additional observations from a re-analysis of the deposited data

How the results depend on the processing

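By the adjusted p-value, none of the 37 genes rose in any alternative. The number that fell against bFGF/EGF ranged from 12 (pseudocount of 1) to 24 (adjusted p-value alone) with bFGF/BMP4 and from 17 (pseudocount of 1) to 30 (adjusted p-value alone) with BMP4, around 19 and 21, and between the BMP4 groups it went from 13 to 1 with a pseudocount of 1. The pseudocount shrinks ratios of levels near or under 1 FPKM, which is how these calls fell short. With single libraries left out the 3 counts ranged from 16 to 20, from 19 to 22 and from 8 to 13. Deviations from the group means correlated at -0.212 to 0.222 between same-numbered libraries and at -0.248 to 0.187 between differently numbered ones. The highest value was that of bFGF/EGF replicate 2 with BMP4 replicate 2. Deviations from means of 3 libraries cannot decide whether libraries shared an isolation or a batch. A replicate block gave 19, 21 and 12, with Rad54l losing its call between the BMP4 groups (adjusted p = 0.068 in limma).

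Several uncalled values near 0 changed sign. With bFGF/BMP4 against bFGF/EGF, Fancc was at -0.07 in limma-voom and -0.25 after adjustment for exon length, and from -0.07 to 0.13 with single libraries left out, and Atr was at -0.01 and -0.35, and from -0.19 to 0.25. With BMP4 against bFGF/EGF, Atr was at -0.01 on the TPM scale, -0.02 in limma-voom and -0.19 after adjustment for exon length, and from -0.22 to 0.22 with libraries left out, where Rad51d ranged from -0.15 to 0.03. Between the BMP4 groups, Nbn was at -0.03 after adjustment for exon length, Xrcc3 at 0.00 in limma-voom and Atr at 0.15 after that adjustment. With single libraries left out in that comparison, Rad50 ranged from -0.03 to 0.25, Nbn from -0.06 to 0.17, Xrcc3 from -0.07 to 0.06, Fance from -0.16 to 0.02, Fancg from -0.13 to 0.05, and Atr from -0.15 to 0.10. Outside the 37 genes, Sycp3 between the BMP4 groups was at -0.01 on the TPM scale and -0.06 after adjustment for exon length and ranged from -0.10 to 0.22 with single libraries left out, and Etv4, an FGF/ERK target, ranged from -0.11 to 0.06 with bFGF/BMP4 against bFGF/EGF. The cause of these sign changes was not tested. Depth limits Eme1 and Rad51b most, with as few as 2 and 5 fragments in a library. Intervals of uncalled genes can reach past a fold of 2, as for Rbbp8 with BMP4 against bFGF/EGF (-1.63 to -0.31). By the adjusted p-value alone, 30 members were lower in that comparison, of which 21 were called.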

Other observations

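Regulators of the cell cycle program were read from a list of 20 E2F, DREAM and MMB genes. Of these, 10 fell and 2 rose with bFGF/BMP4 and 12 fell and 3 rose with BMP4 against bFGF/EGF, and 7 fell and none rose between the BMP4 groups. The largest falls with BMP4 were in E2f2 (-4.78 on the log2 scale) and E2f7 (-4.48), an activator and a repressor of the E2F family. E2f2 went from a mean of 7.92 FPKM with bFGF/EGF to 0.865 with bFGF/BMP4 and 0.189 with BMP4, and E2f7 from 4.53 to 0.886 and 0.104.

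The median change of targets of p53, the factor that answers to DNA damage, differed in direction between the comparisons. Of 20 targets, 4 fell and 1 rose with bFGF/BMP4, and 3 fell and 3 rose with BMP4. Between the BMP4 groups none fell and 4 rose. Among all genes tested, 14.1%, 15.4% and 5.14% fell and 16.5%, 21.3% and 8.41% rose in these comparisons. The median log2 fold changes were -0.42, 0.08 and 0.46. By the adjusted p-value alone, 10 were lower and 2 higher with bFGF/BMP4, and 6 and 7 with BMP4. Between the BMP4 groups 1 was lower and 9 were higher by it, against 8.89% and 12.2% of all genes. Without bFGF/EGF replicate 2, 2 rose with bFGF/BMP4 and 1 fell with BMP4. Plk2, a kinase, fell from 80.4 to 10.4 and 6.67 FPKM, and Fas, a death receptor, was at 1.84, 3.62 and 20.4 FPKM, a rise of 3.39 on the log2 scale with BMP4 against bFGF/EGF.

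Of 20 genes of meiotic recombination, 11 passed the filter on low values. With bFGF/BMP4 1 fell and 1 rose, with BMP4 1 fell and 3 rose, and between the BMP4 groups none fell and 2 rose, a count that was 1 whichever library of these groups was left out. Among all genes tested, 14.1%, 15.4% and 5.14% fell and 16.5%, 21.3% and 8.41% rose in the same order. The meiotic genes that rose passed the filter only through the groups in which they were high, so these counts are no test of the list. Sycp3, a component of the synaptonemal complex of germ cells, went from 0.0149 FPKM with bFGF/EGF to 1.53 and 1.62 FPKM in the treated groups, from 0 to 1 fragments a library to 28 to 33 and 26 to 41, and it was called higher in both. Tex11, another meiotic gene, was listed at 0 with bFGF/EGF and had 0.0177 FPKM with bFGF/BMP4 and 0.547 with BMP4.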
